A study of Mus musculus with 2 samples.

Results

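Serotonin receptor transcripts were measured across 9 classes of single cells from the mouse ventral parafacial region, the strip of ventral medulla that holds the retrotrapezoid nucleus (RTN). The members were 9 receptor genes taken by symbol, Htr1a, Htr1b, Htr1d, Htr2a, Htr2c, Htr3a, Htr4, Htr5b and Htr7, out of 28692 genes listed. The gene list holds 14 serotonin receptor genes in all, and the other 5 (Htr1f, Htr2b, Htr3b, Htr5a and Htr6) were followed as companions. Cells came from wild-type C57BL6/J mice in 2 libraries, each treated here as a batch of its own. Each was, by the study's methods, a pool of 8 animals (4 male and 4 female) at 10 days of age. One library was from untreated animals and the other from animals that received 4OH-tamoxifen at 0.2 mg/day for 3 days. With 1 library per condition, the treatment, the animals, the batch and the preparation cannot be told apart, and no p-value was computed.

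Serotonin neurons of the medullary raphe send dense projections to the respiratory groups of the ventral medulla, and serotonin modulates breathing there through several receptor families. The Htr1 receptors couple to Gi/o proteins, lower cyclic AMP and open inward rectifier potassium channels. The Htr2 receptors couple to Gq and phospholipase C, whereas Htr4, Htr6 and Htr7 couple to Gs and raise cyclic AMP. Htr3a forms a cation channel that serotonin opens directly. RTN neurons are glutamatergic cells that respond to CO2 and protons.

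Unique molecular identifiers (UMIs), each standing for 1 captured transcript, were summed over the cells of a class and expressed per 1000000 UMIs (CPM), with exact Poisson 95% intervals. A cell was placed in a class when it held at least 2 UMIs of that class's marker and under 2 of every other marker, except that Slc17a6 was not counted against the RTN gate, since RTN neurons are glutamatergic. The markers were Nmb (RTN), Slc32a1 (inhibitory), Slc17a6 (other glutamatergic), Chat (cholinergic), Aqp4 (astrocyte), Pdgfra (oligodendrocyte precursor), Mog (oligodendrocyte), C1qa (microglia) and Cldn5 (endothelial). After filtering, 3339 untreated cells (median 3628 UMIs) and 8558 4OH-tamoxifen cells (median 2411 UMIs) remained, and 7562 of these 11897 cells (63.6%) were gated. The neuron classes were small, with 32 untreated and 73 4OH-tamoxifen RTN cells, 73 and 247 inhibitory cells, 16 and 66 glutamatergic cells, and 7 and 30 cholinergic cells. The libraries shared 40 barcodes, of which 32 passed the filters in both and 5 fell in the same class in both.

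The classes were checked against their other markers. Gad2, which makes GABA, was counted in 97.3% and 94.3% of inhibitory cells (untreated and 4OH-tamoxifen, here and below). Prph, a motor neuron filament gene, was counted in 100% of cholinergic cells in each library. The RTN gate was less pure by this measure: Slc17a6 was counted in 65.6% and 68.5% of its cells and the synaptic gene Snap25 in 71.9% and 63.0%. Mbp, an oligodendrocyte gene, was counted in 100% of the cells of all 4 neuron gates, so a transcript of another class was present in each of them. Microglia were taken as the background for free RNA, and their median depths were 4020.5 and 2324 UMIs.

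Neurons held most of the receptor transcripts per UMI. Of the 9 members, 5 had at least 20 UMIs over the 9 gates, and all 5 (Htr2c, Htr1b, Htr7, Htr3a and Htr1a) were at least 2-fold higher in the 4 neuron gates than in the 5 non-neuronal gates in each library. Among all 14711 genes that could be compared, 21.5% were called in that direction. Htr2c stood at 197 CPM in neurons and 4.15 CPM in the other cells, a ratio of 47.4 (38.8 to 58.2). Htr1b stood at 58.0 and 1.51 CPM, and its ratio was 38.3 (27.3 to 54.7). Htr7 stood at 24.8 and 0.774 CPM, with a ratio of 32.0 (19.7 to 54.0). These 3 receptors were thus low in the non-neuronal gates, while cells of no gate held 404 of the 1133 Htr2c UMIs, 138 of the 361 Htr1b UMIs and 48 of the 147 Htr7 UMIs. Htr3a differed less, at 20.6 and 3.38 CPM and a ratio of 6.10 (4.38 to 8.46). Htr1a had 24 UMIs in neurons and 1 UMI in the other gates, so it passed the minimum of 20 UMIs through the neuron gates alone and its direction carries no weight.

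**Figure D1:**
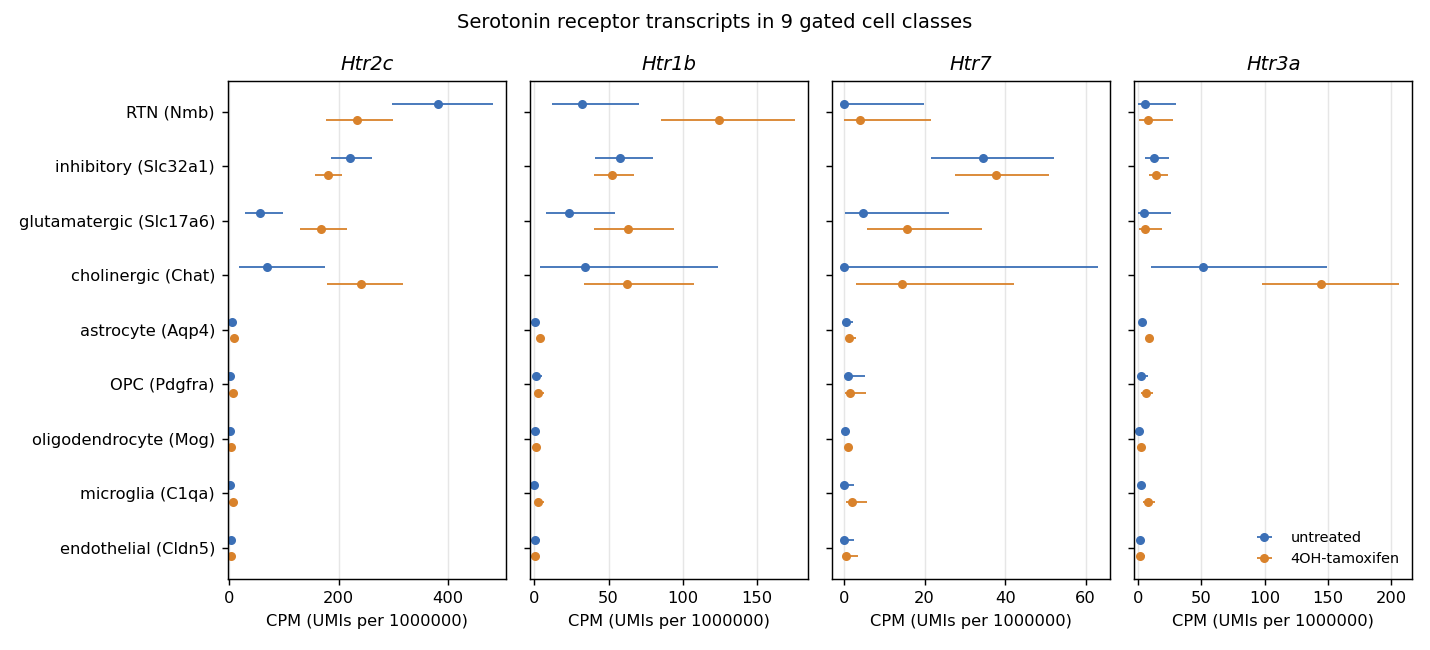
CPM of Htr2c, Htr1b, Htr7 and Htr3a (x axes, each with its own range) in the 9 gated classes (rows) for the untreated and 4OH-tamoxifen libraries; points are summed counts and bars are exact Poisson 95% intervals. Htr2c was high in all 4 neuron classes, Htr7 was highest in inhibitory cells at 34.5 and 37.8 CPM, and Htr3a was highest in cholinergic cells at 51.2 and 145 CPM.

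Between neuron classes the receptors parted. Against inhibitory cells, 4 members could be compared in RTN cells. The value of Htr7 was over 2-fold higher in inhibitory cells in both libraries (6.2% of 9599 genes were called that way). It had 1 UMI in RTN and 66 UMIs in inhibitory cells, so it reached the minimum through inhibitory cells alone. Its call thus carries no weight of its own. In RTN cells, 0 members were called higher (3.49%). Against the other glutamatergic cells, 2 members could be compared and 0 were called in either direction (2.66% and 4.75%). Inhibitory cells were called over glutamatergic cells in Htr7 and Htr3a of 5 members compared (2.55%), with 0 called the other way (2.33%). The calls rested on 66 against 7 UMIs of Htr7 and 25 against 3 UMIs of Htr3a. Both reached the minimum through inhibitory cells, so the calls carry no weight of their own. The Htr3a intervals included 1 in each library. Cholinergic cells exceeded the other neuron gates in Htr3a of 5 members compared (6.04%), and Htr1a was called lower there (10.6%), although its 0 UMIs allow up to 11.3 CPM, above the 8.45 CPM of the other neurons. The counts are small and the intervals cover counting error only.

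**Figure D2:**
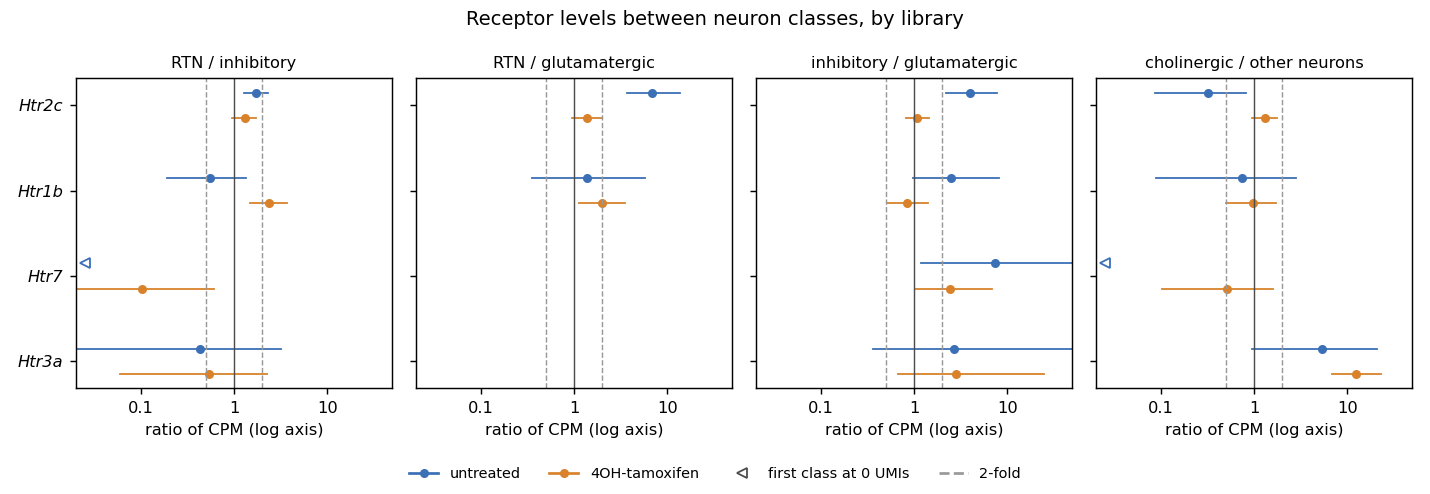
Ratios of CPM between neuron classes (x axis, log scale) for Htr2c, Htr1b, Htr7 and Htr3a in each library, with exact 95% intervals; dashed lines mark 2-fold and arrowheads mark a first class with 0 UMIs. Only members with at least 20 UMIs in the comparison are drawn, and the Htr1b ratio of RTN to inhibitory cells lies at 0.557 (untreated) and 2.37 (4OH-tamoxifen).

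Htr2c, a Gq-coupled receptor on chromosome X (GRCm38, 146962513 to 147197277, plus strand), had the most UMIs of the 9 members in each of the 4 neuron gates in both libraries. Positions and overlaps here are from GENCODE M21, which may differ from the annotation behind the counts. In it the gene holds 8 small RNA genes on the same strand, among them Snora35, so a UMI from one of those transcripts could be counted with it. RTN cells had 71 UMIs in the untreated library, or 382 CPM (298 to 482), and 60 UMIs in the 4OH-tamoxifen library, or 233 CPM (178 to 300). Inhibitory cells had 221 CPM (186 to 261) and 180 CPM (156 to 206). Cholinergic cells had 68.3 CPM (18.6 to 175), from 4 UMIs, and 241 CPM (179 to 318). Glutamatergic cells had 56.1 CPM (29.0 to 97.9) and 168 CPM (129 to 215). The order of the classes differed between libraries: it was RTN, inhibitory, cholinergic and glutamatergic in untreated cells and cholinergic, RTN, inhibitory and glutamatergic in 4OH-tamoxifen cells. In the first order the intervals of cholinergic and glutamatergic cells overlapped and those of the other neighbours did not, and in the second each interval overlapped the next. Inhibitory and glutamatergic cells were apart in the untreated library, with a ratio of 3.94 (2.19 to 7.81), and not in the 4OH-tamoxifen library, where it was 1.07 (0.805 to 1.44). The ratio of RTN to glutamatergic cells likewise went from 6.81 (3.67 to 13.8) to 1.39 (0.959 to 2.00).

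The RTN level of Htr2c exceeded that of inhibitory cells by a ratio of 1.73 (1.28 to 2.32) in the untreated library and 1.30 (0.956 to 1.73) in the treated library, under the 2-fold call in both. Its share of RTN cells was 68.8% (22 of 32 cells) and 50.7% (37 of 73 cells), at median depths of 5010 and 3514 UMIs, and its share of microglia was 0.565% and 1.34%. After each cell was thinned to 2000 UMIs and 15 shallower RTN cells were left out, 41.1% of RTN, 27.0% of cholinergic, 26.4% of inhibitory, 15.4% of glutamatergic and 0.927% of microglial cells had it, pooled over libraries. By library, the thinned RTN share was 53.3% (16 of 30 cells) and 35% (21 of 60 cells). The share of mitochondrial UMIs moved with this level: pooled over libraries, RTN cells above 10% mitochondrial UMIs had 354 CPM of Htr2c and those up to 10% had 145 CPM, against 227 and 164 CPM in inhibitory cells. Only 31 of the 105 RTN cells were at or under 10%, and there the RTN level was 125 CPM against 192 CPM in inhibitory cells without treatment, from 6 RTN UMIs, and 158 against 155 CPM with 4OH-tamoxifen, from 12. Up to the limit in the 4OH-tamoxifen library, cholinergic cells had 141 CPM, from 7 UMIs, and glutamatergic cells had 157 CPM. Cholinergic cells were thus not the highest class there. The part of cell quality in these differences was not tested.

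Cells of the RTN gate were split by a neuropeptide. The neuropeptide galanin (Gal) was counted in 17 of 32 and 26 of 73 RTN cells. Cells with Gal had 543 CPM of Htr2c in the untreated library and those without had 204 CPM, a ratio of 2.66 (1.53 to 4.83). In the 4OH-tamoxifen library the values were 366 and 147 CPM, a ratio of 2.49 (1.44 to 4.39). Htr2c was thus higher in galanin cells in both libraries. The gate holds cells with few neuronal transcripts, however, and 82 of its 105 cells had at least 3 UMIs over 4 neuronal genes (Snap25, Syp, Tubb3 and Elavl2). Among those 82 cells, a setting chosen after seeing the data, Htr2c stood at 543 against 330 CPM without treatment, a ratio of 1.65 (0.948 to 2.99), and at 364 against 171 CPM with 4OH-tamoxifen, a ratio of 2.13 (1.21 to 3.84), so the untreated difference was within counting error. Gal cells also had a higher median mitochondrial share, 16.0% against 10.0% in the untreated and 11.9% against 10.8% in the 4OH-tamoxifen library. Pooled over libraries, the ratio was 4.69 (1.66 to 14.3) among the 31 cells up to 10% mitochondrial UMIs and 2.10 (1.39 to 3.24) among the 74 cells above it. Up to the limit, the untreated library held 1 Gal cell with 1 UMI of Htr2c, a ratio of 2.43 (0.0513 to 21.7), and the 4OH-tamoxifen library alone gave 8.81 (1.88 to 82.7).

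Inhibitory neurons were split by 1 UMI of 5 marker genes. Cells with Cck, the cholecystokinin gene, had 409 CPM of Htr2c against 172 CPM in cells without it in the untreated library. In the 4OH-tamoxifen library they had 427 against 132 CPM, and the ratios were 2.38 (1.66 to 3.38) and 3.25 (2.43 to 4.32). Cells with Sst, the somatostatin gene, went the other way, with 123 against 309 CPM and 126 against 225 CPM, or ratios of 0.397 (0.265 to 0.584) and 0.560 (0.412 to 0.754). Slc6a5, the glycine transporter that marks glycinergic cells, was counted in 203 of 320 cells, and its cells had 168 CPM of Htr2c against 252 CPM in the rest, with a ratio of 0.823 (0.577 to 1.19) in the untreated and 0.581 (0.438 to 0.772) in the 4OH-tamoxifen library. Cells with Ndnf had a pooled ratio of 1.11 (0.817 to 1.48). Pvalb cells numbered 2 in the untreated library, with 0 UMIs of Htr2c, and their ratio was 0.670 (0.383 to 1.10) in the 4OH-tamoxifen library. Pooled over libraries, the Cck ratio was 2.49 (1.75 to 3.51) up to the 10% mitochondrial limit and 3.16 (2.35 to 4.24) above it, although up to the limit the interval included 1 among untreated cells (1.81, 0.903 to 3.49).

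**Figure D3:**
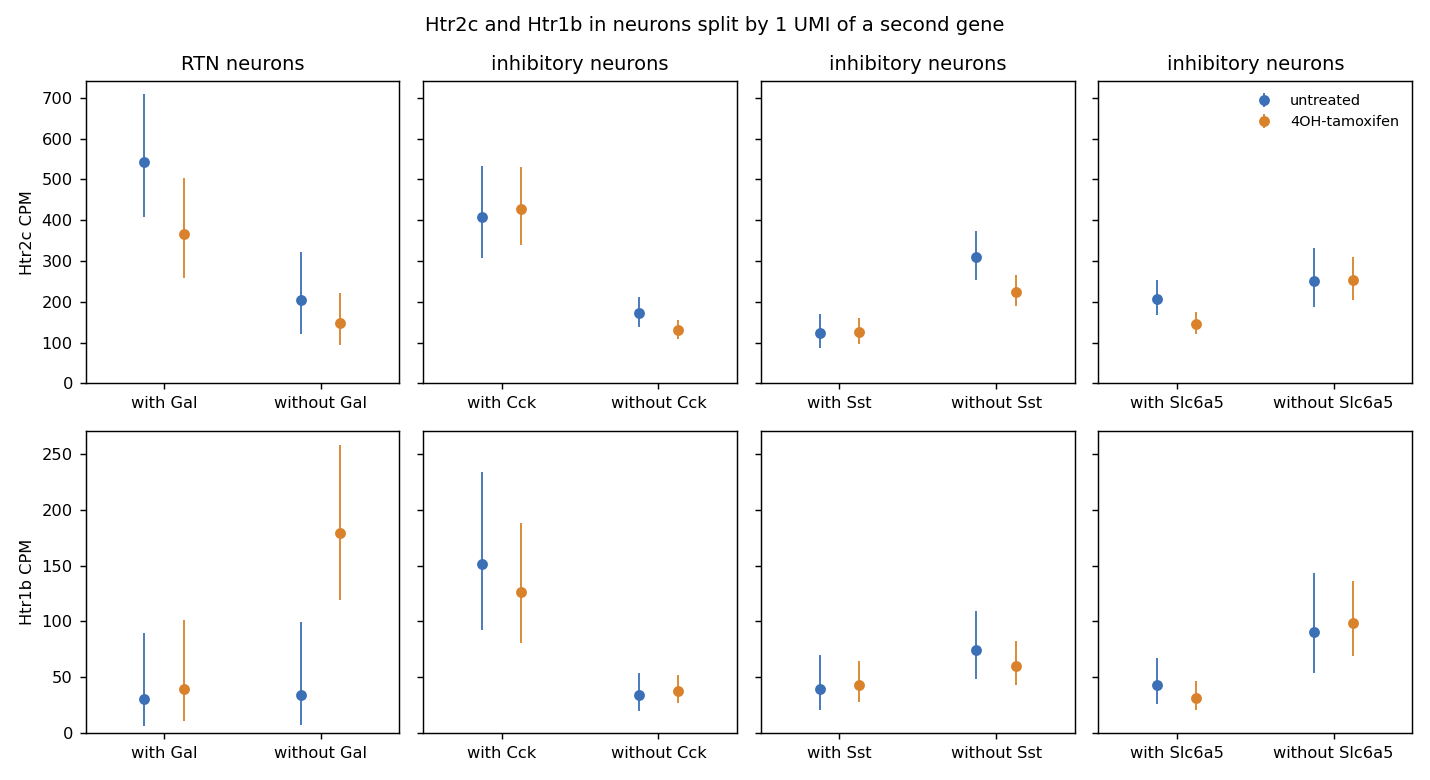
CPM of Htr2c (top) and Htr1b (bottom) in RTN cells with and without a Gal UMI and in inhibitory cells with and without a UMI of Cck, Sst or Slc6a5, by library; bars are exact Poisson 95% intervals. Htr2c was higher with Gal (543 against 204 CPM untreated) and with Cck (409 against 172 CPM untreated) in both libraries, and Htr1b was higher with Cck in both.

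Glutamatergic cells outside the RTN gate were a mixture, and Htr2c followed the mixture. Th, which makes the precursor of dopamine and noradrenaline, was counted in 15 of 82 cells, and these had 1 UMI of Htr2c in 207135 UMIs (4.83 CPM) against 193 CPM in the 67 cells without Th, a ratio of 0.0250 (0.000624 to 0.143). Without the Th cells, the glutamatergic level was 118 CPM (untreated) and 217 CPM (4OH-tamoxifen), where RTN cells had 382 and 233 CPM. The 5 untreated Th cells alone carried 121131 of the 214045 UMIs of that class. Tac1 cells, which make substance P, numbered 12 and had 421 CPM against 93.8 CPM in the rest, and all 26 of their Htr2c UMIs came from 4 cells of the 4OH-tamoxifen library. Htr2a, the other Gq-coupled member, had 7 UMIs in all filtered cells, 1 of them in an inhibitory cell and 2 in astrocytes. In RTN cells it had 0 UMIs, which allows up to 6.77 CPM.

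Htr1b, a Gi/o-coupled receptor that acts on many axon terminals (chromosome 9, 81628291 to 81633828, minus strand, overlapped by 1 gene on the other strand), was counted in all 4 neuron gates. RTN cells had 32.3 CPM (11.9 to 70.3), from 6 UMIs, in the untreated library and 124 CPM (85.0 to 175), from 32 UMIs, in the 4OH-tamoxifen library. Inhibitory cells had 58.0 CPM (40.8 to 79.9) and 52.5 CPM (40.1 to 67.4). Glutamatergic cells had 23.4 CPM (7.58 to 54.5) and 63.0 CPM (40.4 to 93.8), and cholinergic cells had 34.1 CPM, from 2 UMIs, and 62.7 CPM (33.4 to 107). The order of the classes differed between libraries, with inhibitory cells highest in the untreated and lowest in the treated one. The RTN to inhibitory ratio changed sides between libraries, from 0.557 (0.192 to 1.33) to 2.37 (1.49 to 3.69), so no order between these classes can be given. The share of cells with Htr1b also changed sides, from 15.6% of RTN and 34.2% of inhibitory cells without treatment to 24.7% and 16.2% with 4OH-tamoxifen. Pooled, Htr1b was counted in 21.9% of RTN, 20.3% of inhibitory and 23.2% of glutamatergic cells, at median depths of 3740, 4801 and 5714.5 UMIs, and in 0.421% of microglia at 2804 UMIs.

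Htr1b also varied within classes. In inhibitory cells with Cck it stood at 151 CPM against 33.6 CPM without in the untreated library, a ratio of 4.51 (2.24 to 9.16), and at 127 against 38.0 CPM in the 4OH-tamoxifen library, a ratio of 3.33 (1.90 to 5.71). Glycinergic (Slc6a5) cells had less, with ratios of 0.477 (0.237 to 0.964) and 0.317 (0.182 to 0.543). In RTN cells the direction was opposite to that of Htr2c: cells with Gal had 35.2 CPM and those without had 127 CPM, a ratio of 0.278 (0.103 to 0.643). That difference came from the 4OH-tamoxifen library (39.6 against 179 CPM), since in the untreated library each side had 3 UMIs. Th cells had 0 UMIs of Htr1b against 29 UMIs (74.8 CPM) in the other glutamatergic cells, and the count of 0 allows up to 14.5 CPM.

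The other Gi/o-coupled members were sparse. Htr1a, which is the autoreceptor of serotonin neurons and also inhibits their targets, had 7 UMIs (10.97 CPM) and 11 UMIs (9.46 CPM) in inhibitory cells, where it was counted in 4.38% of 320 cells. Glutamatergic cells had 0 and 6 UMIs (15.8 CPM). RTN cells had 0 UMIs in each library, which allows up to 6.77 CPM pooled over libraries, against 9.995 CPM in inhibitory and 10.1 CPM in glutamatergic cells. The interval of the inhibitory to RTN ratio started at 1.08 and that of the glutamatergic to RTN ratio at 0.877, so no difference from glutamatergic cells was detectable at this depth. Within a library the inhibitory to RTN interval started at 0.420 and 0.556, and neither library alone showed a difference. Its position is chromosome 13, 105443639 to 105448122, plus strand. Htr1d, an autoreceptor on axon terminals, had 12 UMIs in all filtered cells, 2 of them in RTN, 2 in inhibitory and 3 in glutamatergic cells. Serotonin neurons themselves were almost absent, with 5 filtered cells in or out of the gates that held at least 2 UMIs of Tph2, the enzyme of brain serotonin synthesis. Of these, 2 lay in the inhibitory gate and 3 in no gate. Those 5 cells had 4 UMIs of Htr1a (111 CPM), 5 UMIs of Htr1b (138 CPM) and 0 UMIs of Htr2c.

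Htr7, a Gs-coupled receptor (chromosome 19, 35958734 to 36057507, minus strand), had the lowest RTN to inhibitory ratio of the 4 members compared. It reached the UMI minimum through inhibitory cells alone. Htr1a, with 0 UMIs in RTN and 18 UMIs in inhibitory cells, fell short of that minimum and was not ranked. The rank of Htr7 thus carries no weight of its own. Inhibitory cells had 22 UMIs, or 34.5 CPM (21.6 to 52.2), in the untreated library and 44 UMIs, or 37.8 CPM (27.5 to 50.8), in the 4OH-tamoxifen library. RTN cells had 0 UMIs, which allows up to 16.1 CPM, and 1 UMI (3.88 CPM, 0.0983 to 21.6). The interval of the RTN to inhibitory ratio reached from 0 to 0.627 among untreated cells, and the ratio was 0.103 (0.00254 to 0.602) in the 4OH-tamoxifen library. Both intervals excluded 1, and both included differences under 2-fold. Htr7 was counted in 16.9% of inhibitory cells (12.9 to 21.4) and in 0.316% of microglia, and after thinning in 7.01% of inhibitory, 1.11% of RTN and 0.265% of microglial cells. Glutamatergic cells had 4.67 CPM, from 1 UMI, and 15.8 CPM, from 6 UMIs, and the inhibitory to glutamatergic ratio was 7.38 (1.19 to 304) and 2.40 (1.02 to 6.90).

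Unlike Htr2c and Htr1b, Htr7 did not separate the inhibitory subgroups beyond counting error. The pooled ratio was 1.39 (0.835 to 2.34) for Sst, 0.821 (0.373 to 1.62) for Cck, 1.42 (0.796 to 2.68) for Slc6a5, 1.14 (0.439 to 2.50) for Pvalb and 0.375 (0.0991 to 1.01) for Ndnf. These intervals are wide, and all of them allow differences of over 2-fold in at least one direction. Htr4, which also couples to Gs, had 4 UMIs in all filtered cells, 2 of them in inhibitory cells and 1 in microglia. RTN cells had 0 UMIs of Htr4.

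Htr3a, the channel subunit (chromosome 9, 48899213 to 48911099, minus strand, overlapped by 1 gene on the other strand), was highest in the cholinergic gate in both libraries. Cholinergic cells had 3 UMIs, or 51.2 CPM (10.6 to 150), in the untreated library and 30 UMIs, or 145 CPM (97.6 to 206), in the 4OH-tamoxifen library. The other neuron gates together had 9.63 and 11.7 CPM, and the ratio was 5.32 (0.940 to 20.6) and 12.4 (6.87 to 22.8). When markers of other gates had to be at 0 UMIs, and after thinning to 2000 UMIs, Htr3a fell under the 20 UMIs asked for and was not compared. Thinned cholinergic cells still had 122 CPM and thinned inhibitory cells 9.55 CPM. It was counted in 13 of 37 cholinergic cells, 35.1% (20.2 to 52.5), and in 1.48% of microglia (0.809 to 2.46), at median depths of 6339 and 2804 UMIs. RTN cells had 1 and 2 UMIs (5.38 and 7.77 CPM), and inhibitory cells had 12.5 (5.41 to 24.7) and 14.6 CPM (8.52 to 23.4). Microglia in the same libraries had 2.02 (0.416 to 5.90) and 7.82 CPM (4.04 to 13.7). The intervals of RTN and of inhibitory cells overlapped those of microglia in each library. Pooled over libraries, the inhibitory interval (8.98 to 20.5) lay above that of microglia (2.78 to 8.19). The call of inhibitory over glutamatergic cells rested on 25 against 3 UMIs, and the interval of its pooled ratio of 2.75 (0.840 to 14.2) includes 1. In cells with at most 10% mitochondrial UMIs the values were 14.9 and 9.64 CPM, from 14 and 3 UMIs, too few to be compared. Cholinergic cells had 70.9 CPM of Htr3a up to that limit and 149 CPM above it, from 6 and 27 UMIs, pooled over libraries. With 4OH-tamoxifen these were 60.4 and 171 CPM. The part of cell quality in the Htr3a level was not tested.

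Because the Chat gate was small, a wider cholinergic class was added after seeing the data, with at least 2 UMIs over Chat, the choline transporter Slc5a7 and the vesicular transporter Slc18a3. It held 43 untreated and 187 4OH-tamoxifen cells. Htr3a stood there at 56.2 CPM (30.7 to 94.4) and 119 CPM (99.2 to 140), and was counted in 23.3% and 33.7% of cells. Htr2c was at 44.2 and 184 CPM, Htr1b at 16.1 and 59.7 CPM, and Htr7 at 0 and 18.7 CPM. In that library, the 63 cells with Htr3a had 242 CPM of Htr2c against 123 CPM in the 124 cells without it, a ratio of 1.96 (1.45 to 2.66). They also had less of the nuclear transcript Malat1 (13565 against 44289 CPM). Among untreated cells, the 10 cells with Htr3a had 2 UMIs of Htr2c (38.4 against 45.7 CPM) and more Malat1 (66206 against 42590 CPM). The cholinergic cells with Htr3a thus differed between libraries in their Malat1 content, and its part in the levels of Htr3a and Htr2c was not tested.

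**Figure D4:**
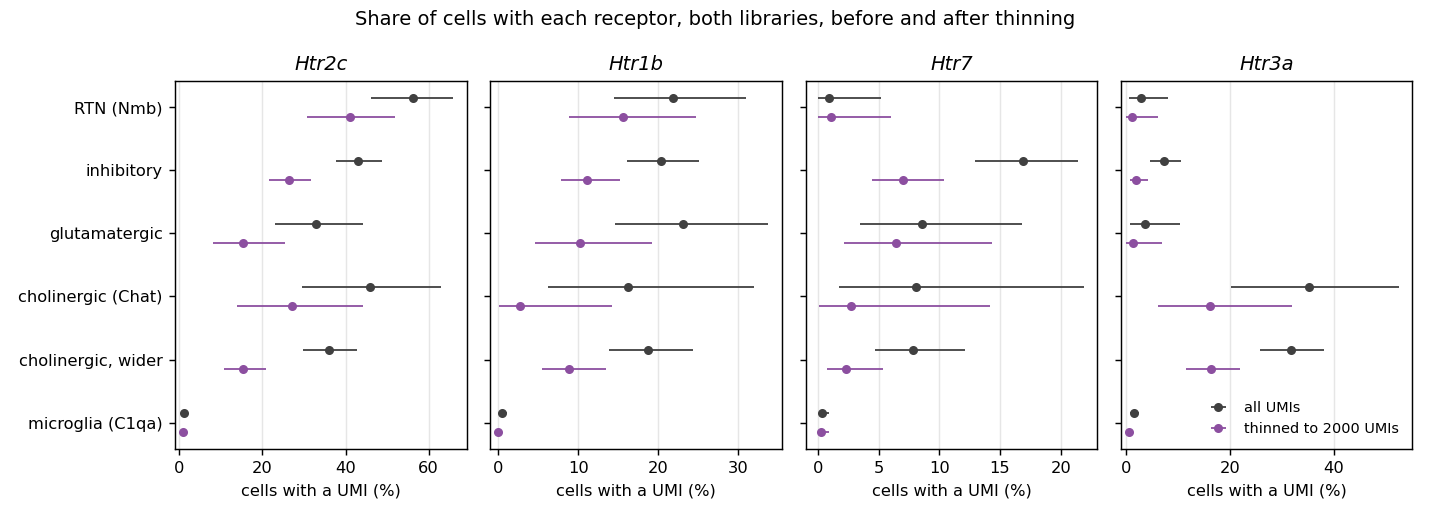
Percent of cells with at least 1 UMI of Htr2c, Htr1b, Htr7 and Htr3a (x axes, each with its own range) in 4 neuron gates, the wider cholinergic class and microglia, pooled over libraries, with all UMIs and after thinning each cell to 2000 UMIs; bars are exact binomial 95% intervals. After thinning, Htr2c remained in 41.1% of RTN cells and Htr3a in 16.3% of the wider cholinergic class, against 0.927% and 0.530% of microglia.

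Htr5b, whose coupling is poorly known and which overlaps 1 gene on the other strand, had 5 UMIs in all filtered cells, 4 in inhibitory and 1 in glutamatergic cells. All 5 fell in neuron gates. The companions were as sparse in the gates: Htr5a had 16 UMIs in neuron gates and 3 in the others, Htr6 had 3 and 5, Htr1f had 5 and 9, Htr3b had 1 and 0, and Htr2b had 0 and 1. Htr1f, a Gi/o-coupled receptor, had 40 of its 54 UMIs in cells of no gate, and 21 UMIs in the wider cholinergic class.

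Receptors were often counted singly in RTN cells, and less so in cholinergic cells. At least 1 member was counted in 64.8% of RTN cells (54.8 to 73.8), 62.5% of inhibitory, 61.0% of glutamatergic and 56.8% of cholinergic cells, against 3.27% of microglia. Among RTN cells, 50 had 1 member, 16 had 2 members and 2 had 3 or more. Among cholinergic cells, 9 had 1 member, 6 had 2 members and 6 had 3 or more. Htr2c and Htr1b were counted together in 16 RTN cells, where the product of their shares gives 12.9. In inhibitory cells Htr2c was counted with Htr1b in 37 cells and with Htr7 in 30 cells, where the products give 28.0 and 23.3. The libraries differed, with 22 against 14.4 (untreated) and 15 against 15.5 (4OH-tamoxifen) for Htr1b. For Htr7 the counts were 8 against 10.4 and 22 against 14.0. In the wider cholinergic class Htr2c was counted with Htr3a in 50 cells, where the product gives 26.3. By library the counts were 2 against 2.33 (untreated) and 48 against 24.6 (4OH-tamoxifen). Deeper cells have more UMIs of every gene, which raises such counts, and no test was made.

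The other genes of the serotonin pathway were taken from a list of 28. Against non-neuronal cells, 19 could be compared, 10 were at least 2-fold higher in neurons (21.5% of all genes) and 1 was lower (20.5%). Those higher in neurons included the Gi/o proteins Gnao1 (295 against 74.0 CPM) and Gnaz (145 against 12.8 CPM) and the potassium channel subunit Kcnj3 (48.0 against 4.75 CPM), through which Htr1 receptors hyperpolarize cells. Gnai2 was the one that was lower (110 against 396 CPM). Between RTN and inhibitory cells, 18 could be compared and 1 was higher in RTN (3.49% of all genes), Gnai2, at 201 against 74.4 CPM, and 3 were lower (6.2%). Plcb1, a phospholipase C that Gq activates, was lower in RTN cells (29.3 against 71.1 CPM), and Kcnj3 was also lower (13.5 against 45.5 CPM). The values of these 3 genes lay in the direction of the non-neuronal cells, and 82 of the 105 cells of the RTN gate had 3 neuronal UMIs. The part of non-neuronal cells in them was not tested. Tph2 was the other gene lower in RTN cells, at 0 UMIs against 43 UMIs that came from 5 inhibitory cells. Tph2 reached the minimum through those cells alone, so its call carries no weight. Glutamatergic cells exceeded RTN cells in 4 of 17 genes compared (4.75%), Maoa, Plcb1, Kcnj3 and Kcnj9, with 0 the other way (2.66%). They exceeded inhibitory cells in 3 of 19 (2.33%), Ddc, Slc18a2 and Maoa, with 0 the other way (2.55%). Cholinergic cells were lower than the other neurons in 3 of 19 (10.6%), Tph2, Ddc and Slc18a2, and higher in 1 (6.04%). Maoa, which breaks serotonin and noradrenaline down, stood at 319 CPM in the glutamatergic cells and at 29.3 CPM in RTN cells. The 15 Th cells held 207135 of the 594923 UMIs of the glutamatergic class. Their part in the levels of Ddc, Slc18a2 and Maoa was not tested. S100a10, whose protein binds Htr1b, was highest in cholinergic cells among the neurons, at 192 CPM against 74.0 CPM in the other neuron gates.

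The genes whose pattern was most like each member were found over 18 values, 9 gates in each of 2 libraries, as Pearson's r of log2(CPM + 10) among 13352 genes with at least 50 UMIs. For Htr2c they were Camk1g (r = 0.970), Gm38393 (0.970) and Radil (0.968). For Htr1b they were Prkacb (0.959), Lrpprc (0.959) and 6430548M08Rik (0.958). For Htr7 they were Fam163b (0.973), Neurod1 (0.941) and Cemip (0.937). Htr3a was most like Shh (0.961), Kcnj14 (0.957) and Slc18a3 (0.955), the last a marker of the cholinergic class. Among the members, Htr2c and Htr1b were the most alike (0.955) and Htr3a and Htr7 the least (0.384). Gates of 1 library share its free RNA and depth, so these values only describe the profiles.

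Between libraries, the members were compared within gates of at least 50 cells in each. In inhibitory cells, 0 of 4 members differed by 2-fold (5.34% of genes did): the 4OH-tamoxifen to untreated ratio was 0.814 (0.654 to 1.01) for Htr2c, 0.905 (0.592 to 1.40) for Htr1b, 1.10 (0.644 to 1.92) for Htr7 and 1.17 (0.477 to 3.12) for Htr3a. In astrocytes, 1 of 2 members did, Htr3a, at 2.83 against 8.58 CPM (5.51%), and in oligodendrocytes 1 of 2, again Htr3a, at 0.948 against 2.08 CPM (3.65%). Htr3a also stood at 2.02 against 7.82 CPM in microglia, where it was below the 20 UMIs asked for. The Chat gate held 0.210% of untreated and 0.351% of 4OH-tamoxifen cells. Higher values in the 4OH-tamoxifen library were not particular to Htr3a. Over the 5 non-neuronal gates, Htr2c stood at 2.71 against 5.03 CPM, Htr1b at 0.654 against 2.03 CPM and Htr7 at 0.280 against 1.07 CPM. Htr3a stood there at 1.78 against 4.35 CPM, while Htr1d and Htr2a, with few UMIs, went the other way. The source of these differences was not tested. No member had 20 UMIs in the precursor, microglial or endothelial gates (5.64%, 9.31% and 5.22% of genes differed there). RTN cells were too few in the untreated library for this comparison, and their values were a ratio of 0.610 (0.425 to 0.872) for Htr2c and 3.85 (1.59 to 11.3) for Htr1b. Members with few UMIs in a class cannot be ranked between libraries.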

How the data were processed

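Cells of the ventral parafacial region were profiled with 10x v2 chemistry in 2 libraries, 1 per condition, each a pool of 8 mice. The authors deposited raw UMI counts per gene and barcode, made with bcl2fastq 2.18.0.12 and Cell Ranger 2.2.0 on the mm10 (GRCm38) genome according to the submitters' processing notes. The deposited count matrices held 3767 untreated barcodes (18496942 UMIs) and 10241 4OH-tamoxifen barcodes (34704167 UMIs).

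Cells with at least 800 genes, at most 50 hemoglobin UMIs and at most 20% mitochondrial UMIs were kept, after Scrublet in scanpy 1.11.5 had marked 6 (0.159%) and 544 (5.31%) barcodes as doublets. Sums, exact Poisson intervals of CPM, exact binomial (Clopper-Pearson) intervals of shares and exact conditional intervals of ratios (all 95%) were computed with python 3.11.15, numpy 2.4.6, scipy 1.17.1 and pandas 2.3.3. They cover counting error only, and a count of 0 was given a limit of 3 counts. Genes with at least 20 UMIs over both classes were compared, and a gene was called when it differed by at least 2-fold in the same direction in both libraries. Within a gate, libraries were compared by 2-fold alone. The scripts were tested on simulated data.

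The text names all 9 members, genes of the 28-gene pathway list, gate markers and, for each member with at least 50 UMIs, the 3 genes of the most similar profile. Members, lists and gates were chosen with earlier results of these data known. Alternatives changed the cell filters, gates, depth, averaging, fold and UMI minimum. A wider cholinergic class, the split at 10% mitochondrial UMIs and the Gal split among RTN cells with 3 neuronal UMIs were chosen after seeing the data. A stricter RTN gate is not reported here.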

Additional observations from a re-analysis of the deposited data

Results flagged for a closer look

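For 3 ratios between neuron classes the libraries lay on opposite sides of 1. The Htr1b ratio of RTN to inhibitory cells was 0.557 among untreated and 2.37 among 4OH-tamoxifen cells. The Htr1b ratio of inhibitory to glutamatergic cells was 2.48 and 0.833. The Htr2c ratio of cholinergic to other neurons was 0.316 and 1.30. With 1 library per condition these differences were not tested. The untreated sides rested on 6 UMIs in RTN cells, 5 UMIs in glutamatergic cells and 4 UMIs in cholinergic cells.

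Neuronal cells that fell in no gate, 136 untreated and 523 4OH-tamoxifen cells, also held receptor transcripts above the level in microglia. Htr2c stood there at 76.1 and 123 CPM. Htr1b stood at 19.0 and 40.2 CPM, and Htr3a at 19.0 and 55.5 CPM. Without the cells of the wider cholinergic class, Htr3a stood at 7.69 (2.50 to 17.9) and 17.6 CPM (11.3 to 26.3), so most of its level there came from cholinergic cells outside the Chat gate. Htr7 stood at 3.57 CPM, from 3 UMIs, and 13.6 CPM.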

How the results depend on the processing

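The count of members called was 1 for RTN against inhibitory cells, 2 for inhibitory against glutamatergic cells, 2 for cholinergic against other neurons and 2 of 8 between libraries. For RTN against inhibitory cells it was 2 with gates at 3 UMIs, with CPM averaged over cells, with a fold of 1.5 and with a minimum of 10 UMIs. For inhibitory against glutamatergic cells it was 1 with at most 10% mitochondrial UMIs, gates at 1 UMI, markers of other gates at 0 UMIs, thinning to 2000 UMIs, averaging CPM over cells and a minimum of 50 UMIs, and 0 with a fold of 3. For cholinergic cells it was 1 with other markers at 0 UMIs, 0 after thinning and 1 with a minimum of 50 UMIs. Between libraries it was 4 without doublet removal, 0 with at most 10% mitochondrial UMIs, 1 with gates at 3 UMIs, 0 with other markers at 0 UMIs, 1 after thinning, 1 with CPM averaged over cells, 4 with a fold of 1.5, 1 with a fold of 3, 7 with a minimum of 10 UMIs and 0 with a minimum of 50 UMIs. Where the count for inhibitory against glutamatergic cells was 1, 3 members and not 5 reached the UMI minimum, except with CPM averaged over cells (5 members). For cholinergic cells 3, 3 and 4 members reached it in the settings named. The cause of the other changes was not tested. Of the log2 ratios, 294 of 330 kept their direction and side of the fold, 12 fell under it, 9 rose past it and 15 others moved. Of the CPM values, 99 of 1215 moved, and 22 of 36 shares of cells moved when at least 2 UMIs were asked for. No paired analysis was possible because each condition had 1 library. The number of cells limits the values of the 82 glutamatergic and 37 cholinergic cells, with 3 UMIs of Htr3a in the untreated cholinergic gate.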

Other observations

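Htr1f, which is not among the members, was counted mainly outside the gates. Of its 54 UMIs, 33 lay in neuronal cells of no gate and 21 in the wider cholinergic class, which share cells. In that class of the 4OH-tamoxifen library it stood at 14.0 CPM in cells with Htr3a and at 19.97 CPM in cells without it, a ratio of 0.701 (0.245 to 1.91).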
